A study of Mus musculus with 6 samples.

Results

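Transcripts of 42 genes of skeletal muscle were followed in RNA of the sciatic nerve of mice, which serves the hind limb. The 42 genes were chosen by name, as parts of the sarcomere, its developmental, slow and fast isoforms, the calcium machinery of the muscle fibre and the factors of muscle stem cells, and all 42 were found among the 24421 genes listed in each library. The series compares 3 libraries labelled YAP/TAZ-DBL-cKO with 3 libraries labelled YAP/TAZ-WT, and its design text counts 3 cKO and 3 wild-type mice. Yap1 encodes YAP and Wwtr1 encodes TAZ, co-activators of transcription that Hippo signalling restrains. The strain, the age, the driver of the deletion, the deleted parts, any allele that both groups share, any pooling of nerves and the way nerves were freed from the tissue around them are unknown here, since no label states them. If libraries of a group do not come from separate mice, the p-values below measure only the spread between these libraries, which may be technical.

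The sarcomere is the contractile unit of striated muscle, in which myosin thick filaments pull on actin thin filaments that are anchored in the Z-disc. Myosin heavy chains and troponins come as paralogs: muscle fibres of the embryo and the newborn use Myh3 and Myh8, and adult fibres replace them with slow Myh7 or with the fast chains Myh2, Myh1 and Myh4. Muscle fibres form from stem cells called satellite cells, marked by Pax7, through the factors Myod1 and Myog. A nerve holds Schwann cells, axons, fibroblasts, vessels and fat, and muscle fibres lie beside it and not in it.

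Stretches upstream of 4 of these genes are shown, because these 4 genes carry the results on isoforms and on the myogenic factors. Each is the run of 150 bases before the start of transcription from RefSeq (GRCm38.p6, the assembly of mm10), written 5′ to 3′ on the gene's strand. Capitals mark the E-box letters CANNTG bound by Myod1 and Myog, the letters TATAAA on either strand, and the CArG box known from muscle actin genes.
Myh3, chr11:67078150-67078299, plus strand: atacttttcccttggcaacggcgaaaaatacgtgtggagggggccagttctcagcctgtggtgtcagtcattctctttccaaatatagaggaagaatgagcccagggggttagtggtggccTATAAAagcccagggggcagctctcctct
Myh4, chr11:67237662-67237811, plus strand: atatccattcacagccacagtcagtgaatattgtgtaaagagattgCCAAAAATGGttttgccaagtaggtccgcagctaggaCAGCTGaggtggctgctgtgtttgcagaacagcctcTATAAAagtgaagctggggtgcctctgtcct
Myh8, chr11:67276974-67277123, plus strand: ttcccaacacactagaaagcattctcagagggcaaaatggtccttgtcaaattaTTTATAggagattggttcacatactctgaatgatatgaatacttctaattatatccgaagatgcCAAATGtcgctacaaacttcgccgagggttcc
Myog, chr1:134289854-134290003, plus strand: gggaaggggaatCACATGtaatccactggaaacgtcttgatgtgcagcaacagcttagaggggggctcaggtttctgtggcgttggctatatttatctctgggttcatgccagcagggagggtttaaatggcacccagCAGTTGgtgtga
In the 250 bases before the start, an E-box stood in 29 of 37 promoters of 31 matched member genes (78.4%) and in 66.2% of all 32851 promoters. A CArG box stood in 5 of the 37 (13.5%) and in 1.47% of all, a MEF2 site in 2 of the 37 (5.41%) and in 0.508% of all, and TATAAA in 8 of the 37 (21.6%) and in 12.4% of all. Some genes have several promoters in these counts, and those of Ldb3, each with a CArG box, overlap, so the promoters are not all independent. The E-box letters were searched on both strands and can overlap other motifs. These matches describe letters and not sites in use.

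Gene counts ranged from 24651262 to 47044158 per library, and every WT library was deeper than every cKO-labelled library. Yap1 stood at 102.6 to 108.8 CPM (counts scaled to library size with TMM factors) in the cKO-labelled libraries and at 120.4 to 123.7 CPM in the WT libraries, and it was not called (edgeR adjusted p = 0.145). Wwtr1 stood at 337.4 to 372.0 CPM in the cKO-labelled libraries and at 253.8 to 284.2 CPM in the WT libraries, and was called higher (edgeR adjusted p = 0.0208). These whole-gene counts do not show a loss of either target, so directions rest on the labels alone. All 8 Schwann cell markers passed the filter on low counts. Of these 8 markers 5 fell and 0 rose (edgeR; 5 lower and 0 higher by DESeq2; 0 higher at an unadjusted p under 0.05; 1 higher without WT 3).

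Most of the 42 skeletal muscle transcripts rose in the cKO-labelled libraries, 38 of them past the test. Where 3 values are given together, they belong to libraries 1, 2 and 3 of the named label, in that order. The summed level of the 42 genes was 6286, 13022 and 8327 CPM in cKO 1, 2 and 3 and 2361, 634.8 and 2227 CPM in WT 1, 2 and 3. The groups did not overlap: the highest WT library stood below the lowest cKO-labelled library by a factor of 2.66. The means were 9212 ± 3454 CPM (SD, n = 3) in the cKO-labelled and 1741 ± 960 CPM in the WT libraries, a ratio of 5.29. As a part of all gene counts the set made up 0.651%, 1.36% and 0.878% in cKO 1, 2 and 3 and 0.232%, 0.0615% and 0.205% in WT 1, 2 and 3.

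Of the 42 genes, 38 were called higher and 0 lower (edgeR, Benjamini-Hochberg adjusted p under 0.05), where 4.77% of all 14789 tested genes were called higher and 6.17% lower. At an unadjusted p under 0.05, 42 were higher and 0 lower, and DESeq2 called 38 higher and 0 lower. Every cKO-labelled library stood above every WT library for 41 of the 42, against 15.3% of all tested genes, and Myh1 was the exception. The log2 fold changes ran from 1.55 for Tnni1 to 3.77 for Pax7, with a median of 2.35 beside a median of 0.02 for all tested genes. All 42 passed the filter on low counts. Myh7 and Mb reached its level of 0.273 CPM in every cKO-labelled library and not in every WT library. Pax7 stood below that level in every WT library, at 0.022, 0.1 and 0.025 CPM, so it passed only through the cKO-labelled libraries. In bulk RNA, fewer cells of a type and less RNA per cell cannot be told apart.

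Libraries within each group also differed. WT 2 was the lowest of the 6 libraries for 39 of the 42 genes, and cKO 2 was the highest for 36, with cKO 3 the highest for the other 6. Without cKO 3, 24 of the 42 were called higher, and the same count of 24 was reached without cKO 3 and WT 2 together. The fit without cKO 3 also called fewer of all genes higher, 276 where the main fit called 706. Leaving out any other single library left 30 to 38 called.

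**Figure D1:**
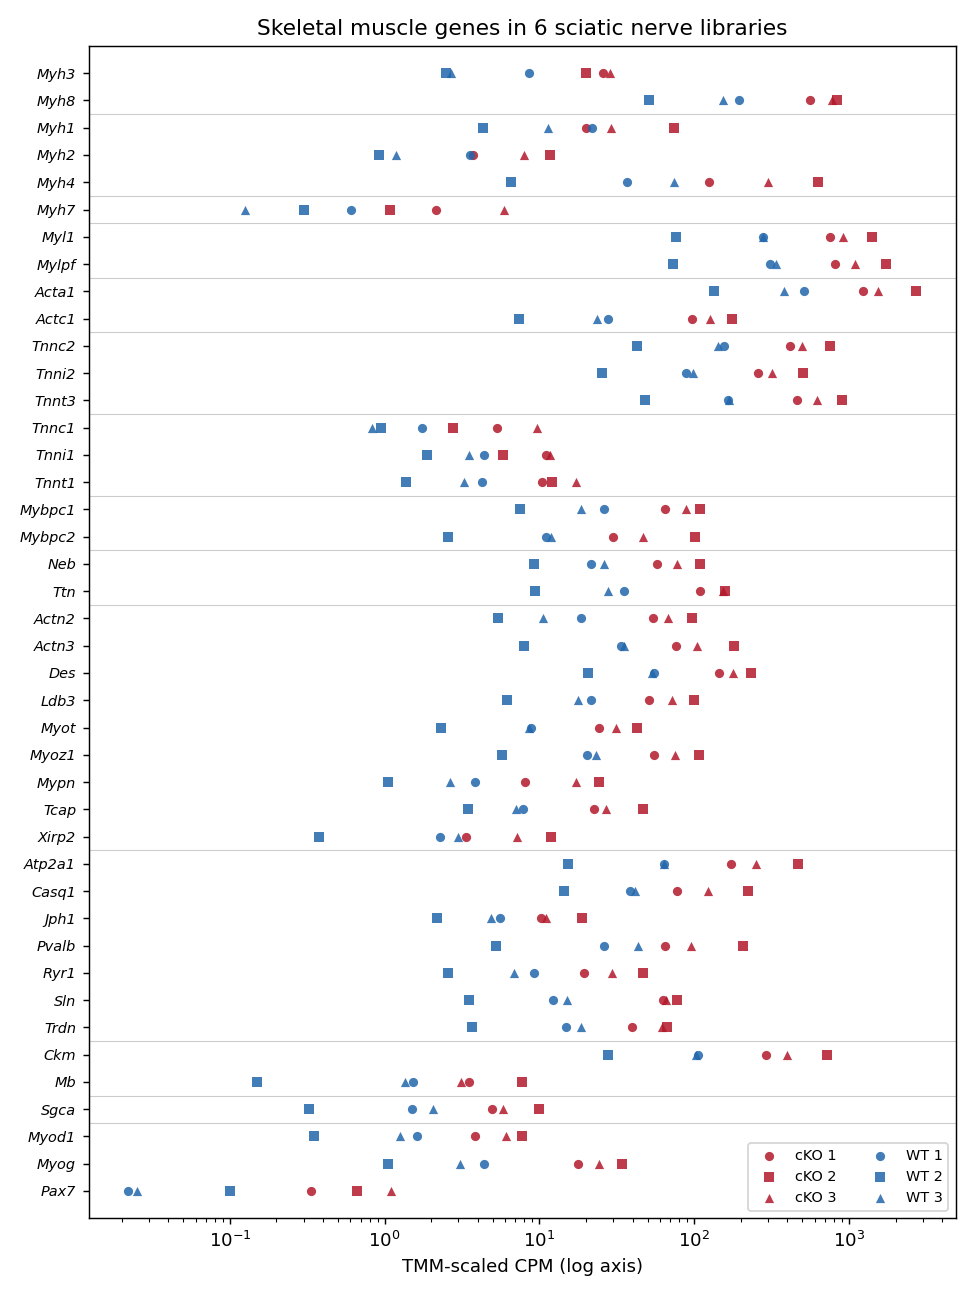
TMM-scaled CPM (log axis) of the 42 skeletal muscle genes in the 6 libraries, 1 point per library, with genes grouped by role between the grey lines. The cKO-labelled libraries lie to the right of the WT libraries for 41 of the 42 genes, and WT 2 is the lowest library for 39.

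The developmental heavy chains were present in all libraries. Myh8, the neonatal chain (chromosome 11, 67277124 to 67308634), stood at 560.0, 833.4 and 778.5 CPM (cKO-labelled) and 194.3, 51.3 and 153.3 CPM (WT). It rose 5.44-fold (log2 2.44 ± 0.41, SE over 3 libraries per label; edgeR adjusted p = 0.00682). The embryonic chain Myh3 (chromosome 11, 67078300 to 67102291) stood at 25.9, 19.9 and 28.6 CPM (cKO-labelled) and 8.53, 2.48 and 2.67 CPM (WT). It rose by log2 2.43 ± 0.43 (edgeR adjusted p = 0.00874), and without WT 1 by 3.24, where Myh8 rose by 2.78; the difference between both genes was not tested. Myh3 differed from most of the set in that cKO 2 was the lowest of the cKO-labelled libraries. Both calls held whichever single library was left out.

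The fast chains varied more between libraries. Myh4, the chain of the fastest fibres (chromosome 11, 67238029 to 67260446), stood at 124.1, 634.3 and 300.3 CPM (cKO-labelled) and 36.9, 6.53 and 74.1 CPM (WT). Its log2 fold change of 3.17 ± 0.81 (edgeR adjusted p = 0.0373) was among the largest of the set and had the largest SE, and its call did not hold without cKO 2, cKO 3 or WT 1. Myh2 stood at 3.71, 11.7 and 7.91 CPM against 3.55, 0.925 and 1.18 CPM, so that cKO 1 and WT 1 lay almost at the same level, and its call (edgeR adjusted p = 0.0488) held in 2 of the 6 fits that left out 1 library, those without cKO 1 or WT 1. Myh1 stood at 20.1, 74.4 and 29.0 CPM against 21.7, 4.35 and 11.4 CPM. Its groups overlapped and it was not called (log2 1.71 ± 0.59, edgeR adjusted p = 0.108).

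The slow chain Myh7 was scarce. It had 71, 28 and 189 counts in cKO 1, 2 and 3 and 28, 12 and 5 counts in WT 1, 2 and 3, which is 2.14, 1.09 and 5.94 CPM against 0.606, 0.3 and 0.126 CPM. It rose by log2 3.12 ± 0.71 (edgeR adjusted p = 0.0238), a call that did not hold without cKO 3 or without WT 2. cKO 2, the library with most of the other muscle transcripts, was the lowest cKO-labelled library for Myh7. Counts of heavy chains are uncertain where paralogs share sequence: of the 50-base stretches in GENCODE transcripts, 30.5% of Myh1, 24.6% of Myh2, 20.0% of Myh7, 18.9% of Myh4, 12.1% of Myh8 and 4.76% of Myh3 also occur in another gene.

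Makeup of the heavy chains was compared as each gene's percentage of counts per kilobase over the 6 chains. Myh8 made up 75.7%, 52.4% and 67.2% in cKO 1, 2 and 3 and 72.8%, 77.6% and 62.7% in WT 1, 2 and 3, so it was the most abundant heavy chain in every library. Myh4 followed with 17.2%, 40.8% and 26.5% in the cKO-labelled and 14.1%, 10.1% and 30.9% in the WT libraries. The 3 fast chains together came to 32.1 ± 13.1% (SD, n = 3) in the cKO-labelled and 26.01 ± 9.22% in the WT libraries, and the developmental chains to 67.6 ± 12.9% and 73.8 ± 9.03%. Both differences, of 6.12 and -6.17 percentage points, were smaller than the spread within groups (exact two-sided permutation p = 0.6 for each, adjusted p = 0.857 over 10 shares; 0.1 is the smallest p that 3 against 3 allows). In raw counts the fast share was 45.7% in cKO 2 (95% Wilson interval 45.3% to 46.2%) and 20.1% in cKO 1 (19.6% to 20.6%), and 35.7% in WT 3 (34.7% to 36.7%) and 17.9% in WT 2 (16.5% to 19.4%). Libraries of the same label thus differed by more than counting error, which is all that these intervals cover.

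**Figure D2:**
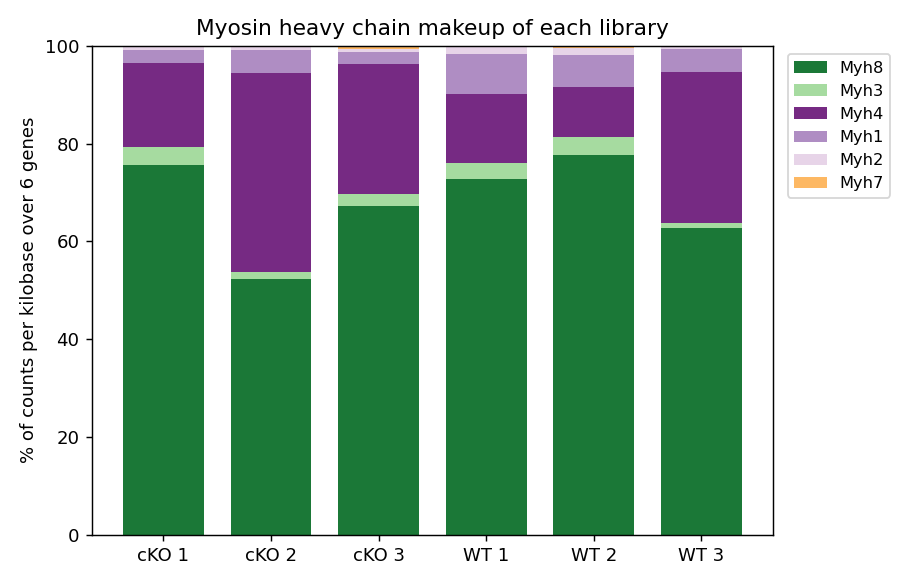
Percentage of counts per kilobase that each of 6 skeletal myosin heavy chain genes takes in each library (stacked bars, 1 per library). Myh8 is the largest part in all 6 libraries, from 52.4% in cKO 2 to 77.6% in WT 2, and Myh4 ranges from 10.1% in WT 2 to 40.8% in cKO 2.

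Slow paralogs were minor in every troponin pair. Tnni1, the slow inhibitory troponin, made up 2.42%, 0.664% and 2.09% of Tnni1 and Tnni2 in cKO 1, 2 and 3 and 2.80%, 4.13% and 2.03% in WT 1, 2 and 3 (counts per kilobase; exact permutation p = 0.3, adjusted p = 0.857). The slow calcium-binding Tnnc1 made up 0.354% to 1.83% of its pair in the cKO-labelled and 0.560% to 2.13% in the WT libraries, and slow Tnnt1 made up 1.35% to 2.77% and 1.94% to 2.85%. cKO 2 had the lowest slow share of all 6 libraries in each of these 3 pairs. The share of Tnnc2 is less certain, since 74.0% of its exon bases overlap Ube2c, a gene of cell division on the opposite strand, and the counting's strand setting is not stated.

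The troponin genes themselves rose with the rest of the set. Fast Tnnt3 went from 127.1 ± 68.7 to 663.4 ± 223 CPM, Tnni2 from 70.9 ± 39.8 to 362.7 ± 129 CPM and Tnnc2 from 113.8 ± 62.1 to 557.8 ± 177 CPM, changes of 4.90-fold to 5.22-fold (edgeR adjusted p = 0.00997 to 0.0120). Slow Tnni1 stood at 11.1, 5.84 and 11.7 CPM (cKO-labelled) and 4.41, 1.88 and 3.50 CPM (WT), a rise of 2.93-fold (edgeR adjusted p = 0.0233) that was the smallest of the 42 and lost its call without cKO 1, cKO 3 or WT 2. Tnnc1 rose 5.01-fold, a call that did not hold without cKO 3 or without WT 2, and Tnnt1 rose 4.48-fold.

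Actin and the light chains were the most abundant of the set. Per kilobase, the cKO-labelled means were led by Mylpf (1591 CPM per kilobase), the fast regulatory light chain, then Acta1 (1264), skeletal actin, and Myl1 (951.4), the fast essential light chain. Acta1 (chromosome 8, 123891769 to 123894751) stood at 1238, 2717 and 1530 CPM (cKO-labelled) and 509.6, 133.8 and 378.6 CPM (WT), and rose 5.37-fold (edgeR adjusted p = 0.0115). Actc1, the actin of heart and of developing skeletal muscle, stood at 96.2, 175.3 and 127.3 CPM against 27.8, 7.40 and 23.5 CPM and rose 6.78-fold (edgeR adjusted p = 0.00461). Its share of both actins was 7.09%, 5.96% and 7.55% in cKO 1, 2 and 3 and 5.09%, 5.15% and 5.73% in WT 1, 2 and 3. That was the only 1 of the 10 shares without overlap between the groups (exact permutation p = 0.1, the smallest possible; adjusted p = 0.857). Mylpf rose 5.09-fold and Myl1 4.89-fold, with Mylpf losing its call without cKO 2 or cKO 3.

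Ttn, which encodes the spring titin, went from 24.2 ± 13.4 to 139.9 ± 27.1 CPM (5.77-fold), and Neb, which encodes the thin filament ruler nebulin, from 18.9 ± 8.70 to 81.6 ± 26.5 CPM (4.31-fold). The myosin binding proteins Mybpc1 (slow) and Mybpc2 (fast) rose 4.99-fold and 6.93-fold, and the share of Mybpc1 in that pair was 61.1 ± 8.90% in the cKO-labelled and 67.9 ± 7.04% in the WT libraries (exact permutation p = 0.4). Of 9 genes of the Z-disc and cytoskeleton, 8 rose, between 4.31-fold for Des and 6.49-fold for Mypn. The cross-linkers Actn2 and Actn3 rose 6.36-fold and 4.72-fold, Tcap, which caps titin, 5.23-fold, and the Z-disc proteins Ldb3, Myoz1 and Myot 4.80-fold to 4.97-fold. Without cKO 3 the calls of Actn3 and Myoz1 did not hold, and without cKO 2 that of Actn3 did not. Xirp2, an actin-binding repeat protein, stood at 3.38, 11.8 and 7.19 CPM against 2.27, 0.375 and 2.97 CPM and was not called (log2 1.98 ± 0.65, edgeR adjusted p = 0.0895).

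Of 7 genes of calcium handling 6 rose. Atp2a1, the calcium pump of fast fibres, rose 6.27-fold, Casq1, the calcium store protein, 4.48-fold, Ryr1, the release channel, 5.10-fold, and Trdn, which tethers both, 4.55-fold. The call of Casq1 did not hold without cKO 3, nor that of Trdn without cKO 2 or cKO 3. Sln, an inhibitor of the pump, stood at 63.0, 77.9 and 66.2 CPM (cKO-labelled) and 12.3, 3.50 and 15.2 CPM (WT). Its 6.67-fold rise (log2 2.74 ± 0.41, edgeR adjusted p = 0.00431) came with a spread of only 7.84 CPM (SD) among the cKO-labelled libraries. Jph1, which joins the membranes of the calcium release unit, stood at 10.3, 18.8 and 11.1 CPM against 5.56, 2.18 and 4.84 CPM and rose 3.18-fold, a call that did not hold without cKO 2 or without cKO 3. Pvalb, the calcium buffer of fast fibres, stood at 64.5, 207.4 and 95.8 CPM against 26.1, 5.25 and 43.3 CPM. It was not called (log2 2.30 ± 0.66, edgeR adjusted p = 0.0574).

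Of the energy and membrane genes Ckm and Sgca rose and Mb was not called. Ckm, the creatine kinase of muscle, went from 79.2 ± 44.7 to 470.0 ± 221 CPM (5.93-fold, edgeR adjusted p = 0.0121). Mb, the oxygen store of slow and oxidative fibres, was low, at 3.50, 7.67 and 3.11 CPM against 1.54, 0.150 and 1.36 CPM, and was not called (log2 2.21 ± 0.66, edgeR adjusted p = 0.0671). Sgca, a sarcoglycan of the striated muscle membrane, rose 5.33-fold, a call lost without cKO 2, cKO 3 or WT 1.

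**Figure D3:**
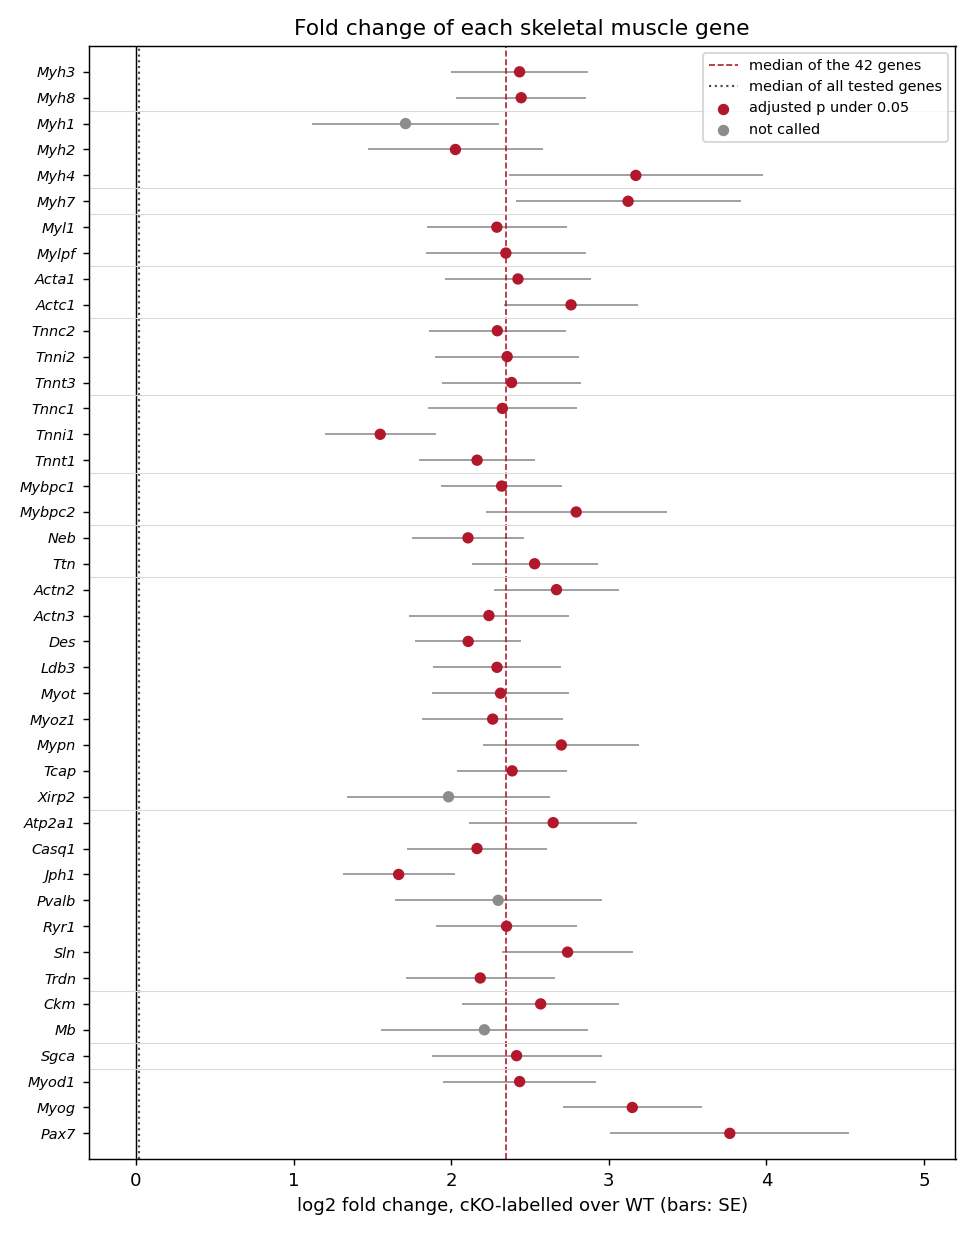
Log2 fold change (cKO-labelled over WT) of each of the 42 genes, with bars of 1 SE from the edgeR fit on 3 libraries per group and filled red points for adjusted p under 0.05. All lie above 0, from 1.55 for Tnni1 to 3.77 for Pax7, which passed the filter on low counts only through the cKO-labelled libraries. The dashed median of 2.35 stands apart from the dotted median of 0.02 of all tested genes.

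The myogenic factors rose too. Myog, which drives the differentiation of muscle precursors (chromosome 1, 134289989 to 134292548), stood at 17.8, 34.04 and 24.3 CPM (cKO-labelled) and 4.41, 1.05 and 3.05 CPM (WT). It rose by log2 3.15 ± 0.44 (edgeR adjusted p = 0.00315), the smallest adjusted p of the 42, and the call held whichever single library was left out. Myod1, which commits cells to the lineage, stood at 3.86, 7.67 and 6.12 CPM against 1.62, 0.350 and 1.26 CPM (5.41-fold, edgeR adjusted p = 0.0140), a call lost without cKO 2 or cKO 3. Pax7, the marker of satellite cells, had 11, 17 and 35 counts in cKO 1, 2 and 3 and 1, 4 and 1 counts in WT 1, 2 and 3. Over pooled counts of 63 and 6 the ratio was 14.6 (95% exact interval 6.34 to 41.2, for counting error only; edgeR adjusted p = 0.0144). Its call did not hold without cKO 3 or without WT 1. Pax7 passed the filter on low counts only through the cKO-labelled libraries, where it was high. Of 11 tested other satellite cell and myogenic genes, 8 rose and 0 fell (edgeR; 0 lower at an unadjusted p under 0.05 and by DESeq2). Among them were Tmem8c, which encodes the fusion protein myomaker (log2 2.75 ± 0.41), and Cdh15, M-cadherin (log2 2.64 ± 0.51). Without cKO 3 that count was 1, without cKO 2 it was 2 and without WT 1 it was 4.

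Relative to the summed counts of the 42 genes, the parts of most members overlapped between the groups. The ratio of the mean parts (cKO-labelled over WT) ran from 0.554 for Jph1 to 1.77 for Myh4. Acta1 took 19.8% of the summed counts on average, Mylpf 13.2%, Myl1 11.7%, Myh8 7.98%, Tnnt3 7.31% and Tnnc2 6.36% (counts, not corrected for length), and these 6 came to 66.3%. The part of Acta1 was 0.988 times, and that of Tnnt3 0.987 times, the WT mean. The summed counts include these genes, so the ratios of the most abundant are drawn towards equality.

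Without overlap between groups, 3 genes had a higher and 2 a lower part, where 0.162% of all tested genes had a higher and 94% a lower value on this scale. Both backgrounds follow from the scale, whose denominator is 5.29 times as large in the cKO-labelled libraries, so nothing is read from these counts. Myog stood at 28.4, 26.1 and 29.2 counts per 10000 summed counts in cKO 1, 2 and 3 and at 18.7, 16.5 and 13.7 in WT 1, 2 and 3, a ratio of 1.71. Actc1 stood at 153.0, 134.6 and 152.9 against 117.9, 116.6 and 105.4 per 10000 (ratio 1.30), and Ckm at 465.8, 551.0 and 480.1 against 451.5, 436.4 and 464.3 per 10000 (ratio 1.11). Jph1 stood at 16.3, 14.4 and 13.3 against 23.6, 34.3 and 21.7 per 10000 (ratio 0.554), and Des at 230.6, 178.7 and 213.7 against 231.5, 325.7 and 239.9 per 10000 (ratio 0.782). The closest values were less than 1 count per 10000 apart for Des and less than 2 apart for Ckm. The parts of Myod1 overlapped between the groups, with 5.89 to 7.35 in the cKO-labelled and 5.51 to 6.87 in the WT libraries. These parts were not tested.

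**Figure D4:**
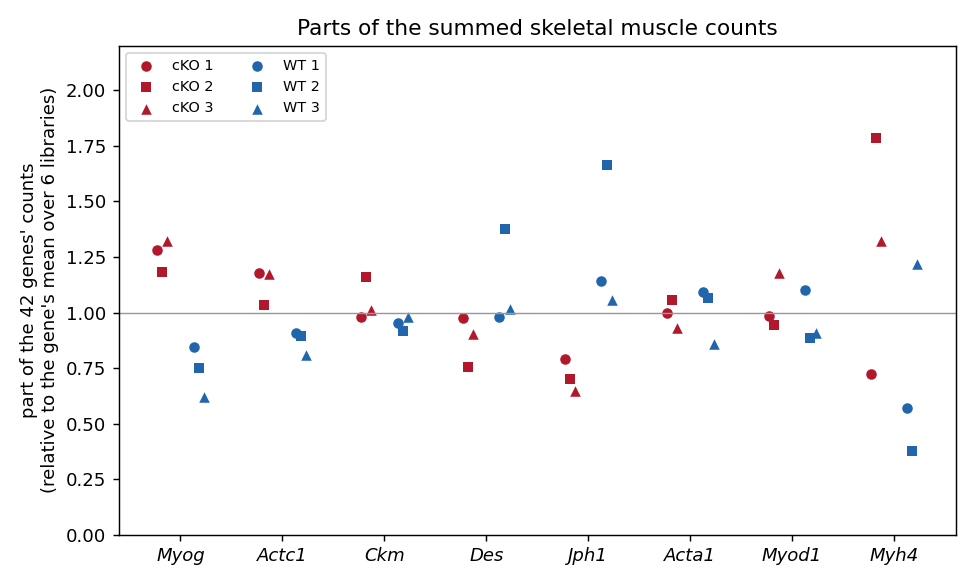
Counts of 8 genes as a part of the summed counts of the 42 genes, divided by the gene's mean over the 6 libraries (1 point per library; the grey line marks the mean). Myog, Actc1 and Ckm lie higher and Des and Jph1 lower in the cKO-labelled libraries without overlap, and they were the only genes of the 42 to do so. Nothing is read from the number of such genes. Acta1, Myod1 and Myh4 overlap. These parts were not tested.

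Other skeletal muscle genes were also read from lists. Of 32 further genes of the sarcomere and Z-disc, 28 rose and 0 fell, with a median log2 fold change of 2.23. Among the 28, Trim55 stood at 0.216, 0.2 and 0.252 CPM in WT 1, 2 and 3, below the filter level of 0.273 CPM. Trim55 thus passed the filter only through the cKO-labelled libraries. Pdlim3 of the Z-disc, Ankrd2 and the myosin chaperone Unc45b rose by log2 1.58 to 2.79. Of 19 tested genes of excitation-contraction coupling and the endplate 15 rose, and of 15 genes of muscle energy metabolism 13 rose, with medians of 1.95 and 2.13. In these 3 lists 0 genes were lower by edgeR, by DESeq2 or at an unadjusted edgeR p under 0.05. The higher counts fell to 14, 7 and 8 without cKO 3 and to 16, 7 and 8 without cKO 2.

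Lists of other tissues differed among themselves. Summed smooth muscle markers stood at 687.2 to 819.6 CPM (cKO-labelled) and 650.1 to 819.0 CPM (WT), but Smtn alone took 65% of that sum. Without Smtn the sum was 282.8, 306.1 and 346.8 CPM (cKO-labelled) against 145.7, 135.8 and 335.6 CPM (WT), so that WT 3 stood near the cKO-labelled libraries and WT 1 and WT 2 below them. By edgeR 0 of 9 tested smooth muscle markers were called (2 higher and 0 lower at an unadjusted p under 0.05; 1 higher by DESeq2). Fat cell markers were also low in WT 1 and WT 2, at 314.2, 366.2 and 465.0 CPM (cKO-labelled) against 94.9, 91.7 and 469.2 CPM (WT), with 0 of 6 tested called (0 at an unadjusted edgeR p under 0.05; 1 higher by DESeq2). Fabp4 took 78.5% of that sum. Without Fabp4 the sum was 43.8, 86.9 and 106.5 CPM (cKO-labelled) against 8.27, 11.6 and 129.4 CPM (WT). Without WT 3, 7 fat and 8 smooth muscle markers were called higher, in a fit that called 1075 of all genes higher where the main fit called 706. The 7 fat markers included Ucp1, which had not passed the filter on low counts in the main fit.

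Tendon markers stood at 482.6 to 542.2 CPM (cKO-labelled) and 461.8 to 650.6 CPM (WT), with 0 of 7 called by edgeR or DESeq2 and 0 at an unadjusted p under 0.05. Thbs4 took 91.6% of that sum, and without it the groups also overlapped, at 42.3 to 50.9 and 26.3 to 54.1 CPM. Red blood cell markers, of which Alas2 took 96% of the sum, stood at 93.9 to 125.0 CPM (cKO-labelled) and 52.6 to 117.7 CPM (WT), with 0 of 3 tested called by edgeR or DESeq2 and 0 at an unadjusted p under 0.05. The heart list separated the groups as the muscle lists did, at 60.1, 73.6 and 67.3 CPM (cKO-labelled) against 19.2, 8.53 and 19.1 CPM (WT). Myl4 took 77.4% of that sum, and without it the sums were 14.8, 13.8 and 14.1 CPM against 5.34, 2.70 and 5.32 CPM. All 4 tested genes of the heart list were higher without overlap, where 15.3% of all tested genes were. Myl4 and Tnnt2, which embryonic skeletal muscle also uses, rose. Tnni3 (log2 1.03, edgeR adjusted p = 0.0875) and Myh6 (log2 0.55, edgeR adjusted p = 0.418) were not called. For Myh6 the groups almost touched, at 1.236 CPM in cKO 1 and 1.233 CPM in WT 1. Of the 5 genes of this list that did not pass the filter, Nkx2-5 had 0 counts in all 6 libraries and Nppa, Nppb, Mybpc3 and Myl7 had 0 to 7. The part that RNA of fat, smooth muscle and Schwann cells has in the muscle results was not tested.

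**Figure D5:**
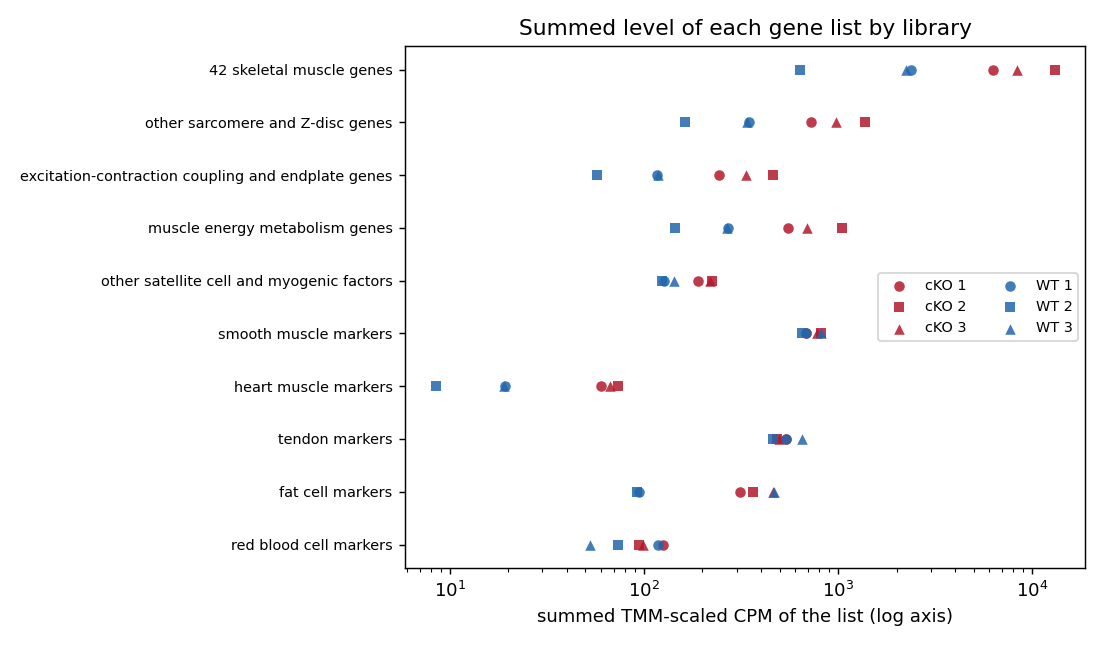
Summed TMM-scaled CPM (log axis) of the 42 genes and of 9 other gene lists, 1 point per library. The skeletal muscle and heart (77.4% Myl4) lists separate the groups. Smooth muscle markers (65% Smtn), tendon markers (91.6% Thbs4) and red blood cell markers (96% Alas2) overlap. Fat cell markers (78.5% Fabp4) are low in WT 1 and WT 2 but not in WT 3.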

How the data were processed

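For each of 6 total RNA libraries the authors deposited unnormalised counts of reads by gene symbol. Per the submitters' processing notes the authors used TopHat2 2.0.13, HTSeq and build mm10; the annotation and strand setting are not stated. The closing lines of the counting program (reads of no gene, 12.1% to 14.3% of a file, and shared reads, 1.64% to 2.82%) were kept out of library sizes. A count of 0 allows up to 0.0638 to 0.122 CPM (3 counts; counting error only).

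The test was that of edgeR 4.0.16 (R 4.3.3): filterByExpr (minimum count 10), TMM factors, quasi-likelihood F test on all 6 libraries, Benjamini-Hochberg adjustment over 14789 genes, calls at 0.05. Standard errors were taken as the log2 difference over the root of F. List sums without the most abundant gene were added after seeing the data. Alternatives used DESeq2 1.42.0 and limma 3.58.1. Lengths are those of the GENCODE M21 transcript with the longest coding sequence. The scripts were tested on simulated data.

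The 42 genes are named by their list. From each other list up to 4 genes in order of p are named; Nkx2-5, Nppb, Mybpc3, Chrng, Myl2, Myl3 and other genes outside that rule were chosen after their values were seen. Members and lists were chosen with earlier results of these data known. A few listed genes are not reported here by name.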

Additional observations from a re-analysis of the deposited data

How the results depend on the processing

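All 42 log2 fold changes stayed positive under every setting run in which the gene was tested. Of the 42, 24 kept their call whichever single library was left out, and 3 (Myh1, Xirp2 and Mb) were never called then. In those 6 fits 24 to 38 members were called higher and 0 lower, 41 to 42 did not overlap, and the mean log2 difference of the summed level was 1.94 to 2.86. Over all genes 735 to 2195 were changed, 276 to 1075 higher and 459 to 1120 lower. Without cKO 3 and WT 2 together, chosen after seeing the data, 24 members were called, and 318 genes changed (137 higher, 181 lower). Total counts alone shifted the median of all genes by 0.124 (log2), with 1273 genes higher and 606 lower and 40 members called; DESeq2 size factors, upper-quartile factors and library sizes without muscle genes left 38 members called. No pairing of libraries with the same number was seen: the correlations of same-number deviations over genes were -0.273, -0.142 and 0.084. With 3 libraries per group such correlations cannot decide whether the numbers mark pairs. With the replicate block 461 genes were higher and 30 members were called; the calls of Actn3, Myh2, Myh4, Myh7, Mybpc2, Casq1, Jph1 and Sgca were lost. When each library was left out, the differences in percentage points ranged from -12.0 to 0.780 for developmental and -0.935 to 12.0 for fast myosin, -0.0642 to 0.155 for Myh7, -0.990 to 0.485 for Myh3, 1.2 to 1.99 for Actc1, -0.466 to 0.321 for Tnnc1, -1.74 to -0.693 for Tnni1, -0.647 to 0.0645 for Tnnt1, -10.7 to -1.74 for Mybpc1 and 0.737 to 9.24 for Actn2. Pax7 had 1 to 4 and Myh7 had 5 to 28 counts in the WT libraries, which limits the precision of their folds.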

Other observations

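Myl4, the light chain of embryonic muscle and of the atrium, stood at 45.3, 59.8 and 53.3 CPM (cKO-labelled) and 13.8, 5.83 and 13.8 CPM (WT) (log2 2.24 ± 0.29, edgeR adjusted p = 0.00219). Tnnt2, a troponin T of heart and embryonic muscle, stood at 11.7, 10.4 and 10.5 CPM against 3.14, 0.775 and 3.23 CPM (log2 2.19 ± 0.42, edgeR adjusted p = 0.0121). Among the further sarcomere genes, Myom3 (log2 1.37, edgeR adjusted p = 0.159, groups overlapping) and Csrp3 (log2 1.51, edgeR adjusted p = 0.0753) were not called. The slow light chains Myl2 and Myl3 were scarce, at 3.11, 1.60 and 6.47 CPM against 0.779, 0.3 and 0.202 CPM for Myl2 and at 1.81, 1.40 and 4.96 CPM against 0.498, 0.0750 and 0.252 CPM for Myl3. Like Myh7 and Tnnc1, both were highest in cKO 3 and lower in cKO 2 than in the other cKO-labelled libraries.

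Of 5 listed subunits of the acetylcholine receptor, through which the motor nerve excites the fibre, 4 were called higher and Chrng was not. Chrne, the adult subunit, had 18, 33 and 25 counts in cKO 1, 2 and 3 and 1 count in each WT library, a ratio of 35.2 over pooled counts of 76 and 3 (95% exact interval 11.6 to 174, counting error only; edgeR adjusted p = 0.00258). It passed the filter on low counts only through the cKO-labelled libraries, and so did Chrnd, which had 50, 68 and 87 counts (cKO-labelled) and 9, 0 and 9 counts (WT) (edgeR adjusted p = 0.00835). Chrng, the fetal subunit, stood at 1.21, 0.896 and 1.45 CPM (cKO-labelled) and 0.844, 0.925 and 0.806 CPM (WT) and was not called (log2 0.47 ± 0.34, edgeR adjusted p = 0.463). The shared subunit Chrna1 stood at 8.35, 14.7 and 9.14 CPM against 2.73, 1.28 and 2.39 CPM (log2 2.32 ± 0.33, edgeR adjusted p = 0.00315), and Chrnb1, also shared, rose 2.52-fold (edgeR adjusted p = 0.0207). Musk, the receptor kinase that builds the endplate, stood at 3.05, 6.19 and 5.06 CPM against 4.70, 5.2 and 3.65 CPM, with overlapping groups (log2 0.07 ± 0.28, edgeR adjusted p = 0.919). The differences between these subunits were not tested.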
